A study of Danio rerio with 6 samples.

Results

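Rab GTPases are small membrane-bound switches that sort vesicles within the cell. Each Rab is active when bound to GTP and inactive when bound to GDP, and carries lipid anchors that hold it on the membrane of 1 or a few compartments. Exchange factors load Rabs with GTP, GTPase-activating proteins return them to the GDP form, and active Rabs recruit effectors such as tethers and motors. In early embryos this traffic delivers adhesion molecules, receptors and matrix to the cell surface and takes them back through endosomes. The genes described here were those whose only platform symbol has the form of a Rab GTPase name (rab, a number and letters), leaving out the Rab-binding proteins rab3gap1, rab3gap2, rab3ip and rab5if. This gave 36 genes with 43 probe sets, of 8793 named genes and 15502 probe sets on the array, and each match is named as a GTPase. A current reference annotation lists 74 protein-coding genes of that form in 40 numbered subfamilies; the 36 genes cover 24 of the subfamilies, and the others (among them rab8, rab9, rab23, rab27 and rab38) were not analysed here.

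The arrays held RNA of whole zebrafish embryos (AB strain) taken 12 h after fertilisation, when 6 somites are present. In the first group were 3 samples of Ovo1 morphants, in which a morpholino, an antisense oligomer that blocks translation or splicing, targeted Ovo1, a zinc finger transcription factor, and labelled as carrying a sox10(7.2):gfp reporter. In the second were 3 samples of control embryos, described as wild type; the design text assigns the sox10 reporter to both groups, and an injection of the controls is not mentioned in the labels. The labels do not say that replicates are separate clutches, and the p-values therefore rest on a spread that may be technical only. The array carries no probe set named as an ovo gene, so the knockdown was not checked. Genes of the p53 damage response were far higher in every morphant array, by 2.94 ± 0.11 for mdm2, 3.64 ± 0.17 for phlda3 and 4.22 ± 0.25 for gadd45aa on the log2 scale, and their part in the Rab values was not tested. Of 26 measured tissue markers of the 6-somite embryo, from notochord to blood, 25 lay above the 25th percentile of brightness, sox32, an endoderm gene, being the exception. Because each sample is a whole embryo extract, fewer cells of a type and less RNA per cell cannot be told apart in any value below.

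Levels are normalised PLIER intensities (a linear, unitless brightness), always listed for replicates 1, 2 and 3. Changes are differences of log2(intensity + 16), morphant minus control. The standard error of a change is that of the fit without the block described next, also where the adjusted p beside it comes from the blocked fit. A level cannot be compared between probe sets. Over all probe sets, same-numbered arrays of the groups deviated together. Over the Rab genes alone the correlations were 0.52, −0.07 and 0.53, so those numbered 2 did not. Each test was run both without and with the replicate number as a block, which compares each morphant sample with the control of its number. Arrays numbered 1 stood apart from the others within both groups along the second principal component, which held 29.6% of the variance, and values without them are given where they change a call of a gene described array by array.

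Most Rab genes differed little between morphants and controls. The log2 changes of the 36 genes, each represented by its brighter probe set, ran from −0.53 (rab25a) to 0.71 (rab12), with 16 above and 20 below 0. Their median was −0.0030, beside 0.0070 over all named genes, and their median size regardless of sign was 0.15, the same as over all named genes. None of the 36 genes passed the test without the block (limma, Benjamini-Hochberg adjusted p of at least 0.0551), where 6.8% of all named genes did. At an unadjusted p under 0.05 there were 10 of 36 genes (27.8%), beside 23.9% of all named genes. With the block 4 Rab genes were higher, rab12, rab14, rab3c and rab40c, and 4 lower, rab18a, rab25a, rab28 and rab41. That is 11.1% in each direction, beside 10.7% of named genes higher and 10.6% lower, so the share of Rab genes called was near that of genes in general. Here rab40c counts by its brighter probe set; counted by its dimmer one, which was lower, the split is 3 higher and 5 lower. All morphant arrays lay above all control arrays in 7 Rab genes (19.4%, beside 14.5%) and below them in 4 (11.1%, beside 14.4%). These 11 genes became 19, with fewer arrays to overlap, without Ovo1 morphant replicate 1. The Rab genes called without the block then numbered 3 in place of 0, while calls over all probe sets rose from 886 to 1713. Without both arrays numbered 1 the called Rab genes numbered 5. Shares over all named genes were not computed with these arrays left out, so no gain particular to Rabs can be read from the counts.

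**Figure D1:**
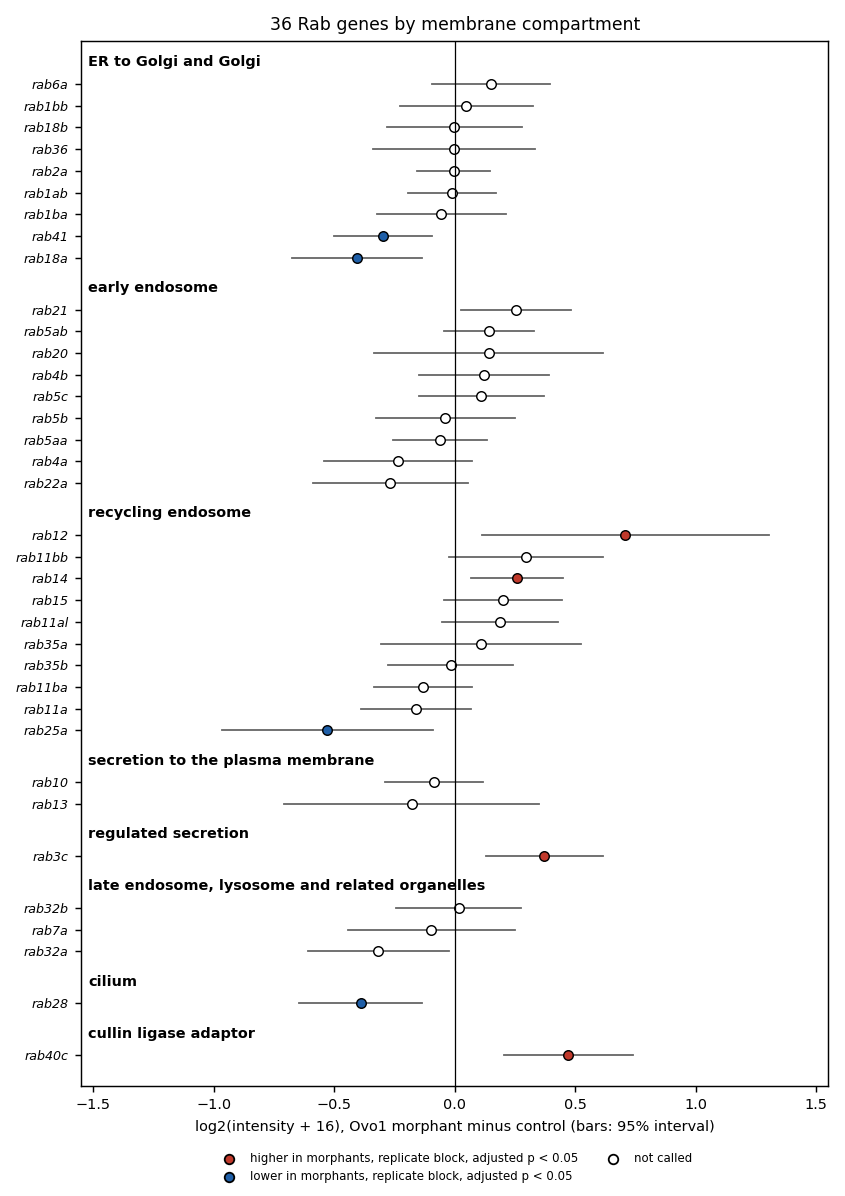
Log2 change, Ovo1 morphant minus control, of the 36 Rab genes (points) with 95% intervals from the fit without the block (bars), grouped by the compartment of each subfamily; coloured points passed the test with the replicate block. Changes to either side of 0 occur in the compartments with the most genes, and rab12 and rab25a, both of the recycling endosome, lie at the ends of the range.

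Counted by probe set, 1 of 43 was called without the block, a lower probe set of rab40c (2.33%, beside 5.72% of all probe sets, 2.59% higher and 3.12% lower). With the block 5 of 43 were higher and 6 lower, beside 8.82% and 9.83% of all probe sets. In each of these 11 probe sets the 3 differences between same-numbered arrays had one sign, which the blocked test itself favours, so this adds no support. In 9 of them the groups did not overlap, and the same share over all called probe sets was not computed. Each replicate number was also left out in turn, with the block kept for the other 2 pairs. Such fits keep fewer residual degrees of freedom per probe set than the full blocked fit and are a weak check. Both probe sets of rab12 and the lower probe set of rab40c stayed called each time. Of the other 8, the brighter rab40c probe set kept its call in 2 of the 3 fits. Each of the rest kept it in only 1, which for rab14, rab18a, rab25a, rab28, rab3c and rab41 was the fit without number 1. Some changes hardly moved, as in rab18a (−0.43 to −0.39), rab28 (−0.42 to −0.37) and rab14 (0.24 to 0.29). Without number 1 the blocked fit also gained calls, among others in rab11a, rab21, rab22a, rab32a and the second probe set of rab11bb. It then called 36.1% of Rab genes, beside 31.9% of all named genes. Without number 2 it called 5.56% of Rab genes, beside 10.5%, and without number 3 2.78%, beside 11.7%.

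**Figure D2:**
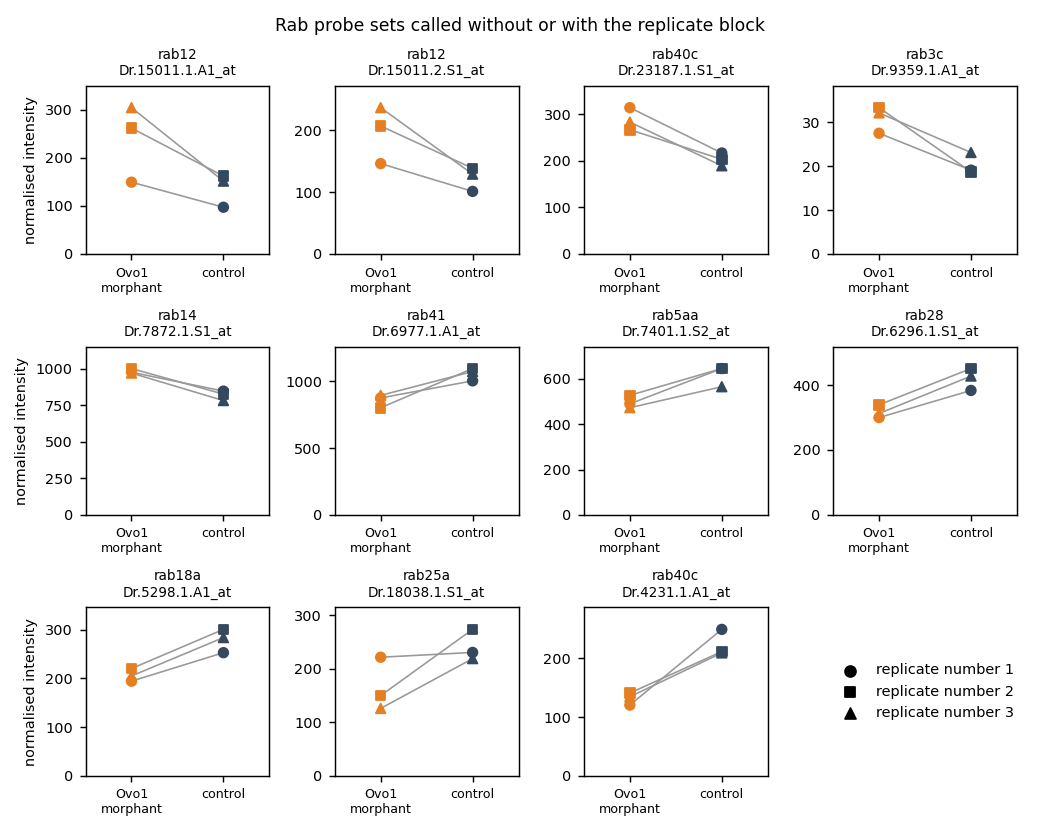
Normalised intensity (linear axes from 0) of the 11 Rab probe sets called without or with the replicate block, in the 3 Ovo1 morphant and 3 control arrays; grey lines join arrays of the same number. In rab12 the arrays numbered 1 are low in both groups and all 3 lines slope the same way, while the 2 rab40c probe sets slope opposite ways.

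The recycling endosome, which returns internalised receptors and adhesion proteins to the cell surface, had the most measured genes, 10, with 6 above 0, 4 below and a median of 0.15. The largest change of the family was in rab12, which in mammalian cells takes part in moving transferrin receptor from recycling endosomes to lysosomes. Its brighter probe set read 149.5, 262 and 305 in morphants and 97.3, 162 and 152 in controls. The groups overlapped because both arrays numbered 1 were the lowest of their group, while each morphant lay above the control of its number, by 0.55, 0.64 and 0.94. The change of 0.71 ± 0.26 (1.63-fold, means 239 ± 80.2 in morphants and 137 ± 34.8 in controls, SD, n = 3 each) did not pass without the block (limma adjusted p = 0.165) and passed with it (0.00329). The second probe set read 146, 207 and 236 in morphants and 101, 138 and 129 in controls, groups that did not overlap. It gave 0.60 ± 0.19, with an adjusted p of 0.106 without the block and 0.00628 with it. Both probe sets passed without the block once Ovo1 morphant replicate 1 was left out (0.0162 and 0.0151), or both arrays numbered 1 (0.00964 and 0.0184). No other omission of a single array gave either of them a call without the block.

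In the opposite direction, rab25a is the zebrafish counterpart of an epithelial Rab11 relative that in mammals recycles membrane at the apical surface. Its brighter probe set read 221, 149.6 and 126 in morphants and 230.2, 273 and 219 in controls. Morphant replicate 1 fell within the control range and the other 2 morphants well below it, with differences by number of −0.05, −0.80 and −0.73. The change was −0.53 ± 0.19 (limma adjusted p = 0.159 without and 0.0368 with the block), and −0.74 without Ovo1 morphant replicate 1, where it passed without the block too (0.0142), as it did without both arrays numbered 1 (0.0191). With any other single array left out it did not pass without the block (limma adjusted p of 0.239 to 0.390). The call with the block was lost without number 2 (−0.39, 0.175) and without number 3 (−0.43, 0.107). A second probe set read between 8.47 and 11.4 on all 6 arrays, near the bottom of the brightness range, and gave −0.02 ± 0.09. Of 3 epidermis and periderm markers, the keratins krt4 (0.05 ± 0.04) and krt5 (0.03 ± 0.06) were not called, and the basal epidermis factor tp63 was lower (−0.48 ± 0.09, limma adjusted p = 0.0181). The readings of tp63 were 529, 535 and 524 in morphants and 738, 738 and 750.4 in controls. The summed intensity of the 3 markers, nearly all of it from the keratins, ran from 19934 to 21401 in morphants and from 19335 to 20604 in controls, and their part in the rab25a value was not tested.

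The third gene with a call was rab14, which works between the Golgi and endosomes. It read 976, 1002 and 970.3 in morphants and 847, 826 and 782 in controls, without overlap. Its change of 0.26 ± 0.08 passed with the block (limma adjusted p = 0.0371) but not without it (0.117). Of the genes named rab11, the core regulators of recycling, 4 copies were measured and none was called in either fit. Among these rab11a, described here because it is known from the study, read 709, 641 and 704 in morphants and 700.1, 799 and 804 in controls, a change of −0.16 ± 0.10. Its groups overlapped, and the adjusted p was 0.422 without the block and 0.247 with it. With the block kept, the limma adjusted p was 0.0332 without number 1 (−0.25), in a fit that called 31.9% of all named genes. It was 0.728 without number 2 (−0.09) and 0.576 without number 3 (−0.15). The copy rab11ba (−0.13 ± 0.09) also lay below 0, whereas rab11al (0.19 ± 0.11) and rab11bb lay above it. For rab11bb, which read 48.5, 58.9 and 65.3 in morphants and 36.2, 50.6 and 45.1 in controls, the probe sets gave 0.30 ± 0.14 and 0.28 ± 0.17. The second was 0.16 when Ovo1 morphant replicate 3 was omitted, against 0.48 when replicate 1 of that group was. With the block kept it passed without number 1 (0.42, limma adjusted p = 0.0239). It did not pass without number 2 (0.30, 0.261) or number 3 (0.13, 0.723). The remaining recycling genes, none of them called, were rab15 (0.20 ± 0.11), rab35a (0.11 ± 0.18) and rab35b (−0.02 ± 0.11). In rab35a 1 morphant array stood apart, with 336, 203 and 218 in morphants and 229, 243 and 211 in controls, and without that array (Ovo1 morphant replicate 1) the change was −0.10.

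On early endosomes Rab5 proteins drive fusion of freshly internalised vesicles, and Rab4 proteins send cargo back quickly. By their brighter probe sets none of the 9 genes here was called in either fit, and their median was 0.11. The highest was rab21, which in mammals traffics integrins. It read 657, 762 and 658 in morphants and 577, 592 and 560.1 in controls, groups that did not overlap. The change was 0.26 ± 0.10 (limma adjusted p = 0.188, and 0.0581 with the block). With the block kept, the adjusted p was 0.0180 without number 1, 0.334 without number 2 and 0.209 without number 3. The lowest was rab22a, at 111, 89.8 and 85.6 in morphants and 104, 131 and 119 in controls (−0.27 ± 0.14, 0.331 and 0.190). With the block kept, rab22a passed without number 1 (−0.46, limma adjusted p = 0.00810). It did not pass without number 2 (−0.16, 0.573) or number 3 (−0.19, 0.595). Beside it rab4a read 170.3, 211 and 202 in morphants and 208, 261 and 227 in controls (−0.24 ± 0.14, 0.375 and 0.117), and both of these genes overlapped between groups. The rab4a change was −0.15 without Ovo1 morphant replicate 1 and also without control replicate 2. By their brighter probe sets the 4 rab5 genes stood at −0.06 ± 0.09 (rab5aa), 0.14 ± 0.08 (rab5ab), −0.04 ± 0.13 (rab5b) and 0.11 ± 0.11 (rab5c). All morphants lay above all controls in rab5ab. The second rab5aa probe set, given in full below, was lower without overlap (−0.31 ± 0.10) and passed with the block (limma adjusted p = 0.0308). The 95% interval of rab5aa ran from −0.26 to 0.13 and that of rab5ab from −0.04 to 0.33. The others were rab20 (0.14 ± 0.21) and the dim rab4b (0.12 ± 0.12).

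Between endoplasmic reticulum and Golgi and within the Golgi, 9 genes had a median of −0.0044. The Rabs of the early secretory route lay close to 0. Among them rab2a, which acts between Golgi and endoplasmic reticulum, read 3480.2, 3236 and 3666 in morphants and 3438, 3381 and 3585 in controls, and its 95% interval ran from −0.16 to 0.15. The changes of rab1ab, rab1ba and rab1bb, which start vesicle tethering at the Golgi entry, were −0.01 ± 0.08, −0.06 ± 0.12 and 0.05 ± 0.12. That of rab6a, a Rab of traffic within and out of the Golgi, was 0.15 ± 0.11.

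The genes of this route with a call, both with the block alone, were lower. In rab18a, whose mammalian relative sits on the endoplasmic reticulum and lipid droplets, morphants read 194, 220.1 and 205 and controls 253, 301 and 284. Without overlap, the change was −0.41 ± 0.12 (limma adjusted p = 0.0881, and 0.0167 with the block), and the differences by number were −0.35, −0.42 and −0.44. Its copy rab18b read between 12.8 and 20.8 on all arrays, dimmer than the 25th percentile, with a change of −0.0014 ± 0.12. For rab41, a relative of the Golgi Rab6, the brighter probe set read 876, 803 and 896 in morphants and 1005, 1097 and 1075 in controls (−0.30 ± 0.09, 0.0939 and 0.0297, and 0.0486 without the block when both arrays numbered 1 were left out). The other probe set read 132, 97.8 and 107 in morphants and 112, 128 and 114 in controls, which overlap, and gave −0.07 ± 0.14. Both probe sets of rab36, a Golgi and late endosome Rab, were near 0 (−0.0017 ± 0.15 and −0.14 ± 0.22).

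Few genes were measured for the remaining compartments. The ciliary rab28, which in mammals and worms associates with the cilium's transport machinery, read 299.8, 339 and 312 in morphants and 383, 451 and 428 in controls. Its groups did not overlap, and the change of −0.39 ± 0.11 passed with the block (limma adjusted p = 0.0156) and not without it (0.0858), unless both arrays numbered 1 were left out (0.0445). Regulated secretion was represented by rab3c alone, a synaptic vesicle Rab in mammals. Like rab12 it is known from the study, so its direction is not independent evidence. Its readings of 27.5, 33.3 and 32.1 in morphants and 19.1, 18.7 and 23.1 in controls did not overlap, but all lay below the 25th percentile of probe sets (37.2). The change was 0.37 ± 0.11 (0.0839 without and 0.0308 with the block, and 0.0499 without the block when Ovo1 morphant replicate 1 was left out), and at this brightness its size depends on the pseudocount, being 0.59 with a pseudocount of 1 and 0.17 with 64. No other omission of a single array gave rab3c a call without the block. Of 5 neural plate markers, sox2 was lower (−0.41 ± 0.10, limma adjusted p = 0.0472) and with the block otx2b was lower too (−0.37 ± 0.12, 0.0137), while pax2a, egr2b and neurog1 passed in neither fit. The sum of the 5, in which brighter probe sets weigh more, ran from 3453 to 3863 in morphants and from 4143 to 4406 in controls. The changes of pax2a (−0.06 ± 0.12), egr2b (−0.0042 ± 0.09) and neurog1 (−0.04 ± 0.11) were near 0. The part of these markers in the rab3c value was not tested.

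In the late endosome and lysosome group, rab32a, whose mammalian relative builds melanosomes, read 137, 122 and 146 in morphants and 154, 187 and 176 in controls. These groups did not overlap, but the change of −0.32 ± 0.13 passed in neither fit (limma adjusted p = 0.199, and 0.0808 with the block). With the block kept it passed without number 1 (0.0180, at −0.40). It did not pass without number 2 (0.424, at −0.20) or number 3 (0.197, at −0.35). Of 4 neural crest markers, the lineage that forms pigment cells, crestin was lower (−1.23 ± 0.24, limma adjusted p = 0.0242), and sox10, foxd3 and tfap2a passed with the block (0.0479, 0.0264 and 0.0265), all lower. The sum of the 4 ran from 3639 to 4005 in morphants and from 4813 to 5086 in controls, and its part in the rab32a value was not tested. Its copy rab32b was dim and stood at 0.02 ± 0.11, and rab7a, the Rab of late endosome fusion, at −0.10 ± 0.15. On the route to the plasma membrane, rab10 gave −0.08 ± 0.09. For rab13, a Rab of tight junction delivery, morphant arrays read 457, 341 and 216 and control arrays 414, 364 and 331, so that morphants spread on both sides of the controls (−0.18 ± 0.23). Without Ovo1 morphant replicate 3 the sign turned, to 0.10.

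The 7 genes with 2 probe sets each show how far a gene's reading depends on the probe set. Probe sets of rab12, rab11bb and rab36 gave similar changes, differing by at most 0.14, within the error of the difference. With the block, the probe sets of 3 genes differed in their call: rab25a and rab41, above, and rab5aa. The changes, brighter minus dimmer probe set, differed by −0.51 ± 0.22 in rab25a and by −0.23 ± 0.10 in rab41. For both genes this difference put all morphants on one side of all controls (two-sided exact permutation p = 0.10, the smallest that 3 against 3 arrays allow). In rab5aa the brighter probe set read 1369.7, 1220.4 and 1217 in morphants and 1305, 1271 and 1395 in controls. The other read 489.8, 528 and 473 in morphants and 646, 646 and 565 in controls, without overlap. This second probe set gave −0.31 ± 0.10 (limma adjusted p = 0.132 without and 0.0308 with the block), and the difference between the 2 changes was 0.25 ± 0.13 (two-sided exact permutation p = 0.20).

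The gene whose probe sets opposed each other was rab40c, an atypical Rab with a SOCS box, through which its vertebrate relatives join cullin ubiquitin ligases. The brighter probe set read 315, 267 and 284 in morphants and 217, 204 and 189.6 in controls, every morphant above every control. The dimmer probe set read 120.4, 141 and 135 in morphants and 249.5, 212 and 209 in controls, every morphant below every control. The changes were 0.47 ± 0.12 (limma adjusted p = 0.0551, and 0.0100 with the block) and −0.69 ± 0.13 (0.0171, and 0.00433 with the block). Leaving out single arrays ended the lower call without the block in 5 of 6 cases (limma adjusted p of 0.0508 to 0.0706) and kept it when Ovo1 morphant replicate 1 was the one omitted, while the change stayed between −0.74 and −0.62. Without both arrays numbered 1, both probe sets passed without the block (0.0453 for the higher and 0.0257 for the lower). The changes differed by 1.16 ± 0.13, with all morphants on one side of all controls (two-sided exact permutation p = 0.10, the smallest that 3 against 3 arrays allow). The same p was found for rab25a and rab41, at smaller differences. Averaged over both probe sets, rab40c stood at −0.11 (adjusted p = 0.591), so the gene as a whole has no settled direction here. Opposite calls within a gene were uncommon: with the block they occurred in 7 of the 1539 named genes with several probe sets, rab40c among them, and without it in 0. That both probe sets detect rab40c rests on the platform annotation, and the stretches of transcript that each detects were not analysed here.

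**Figure D3:**
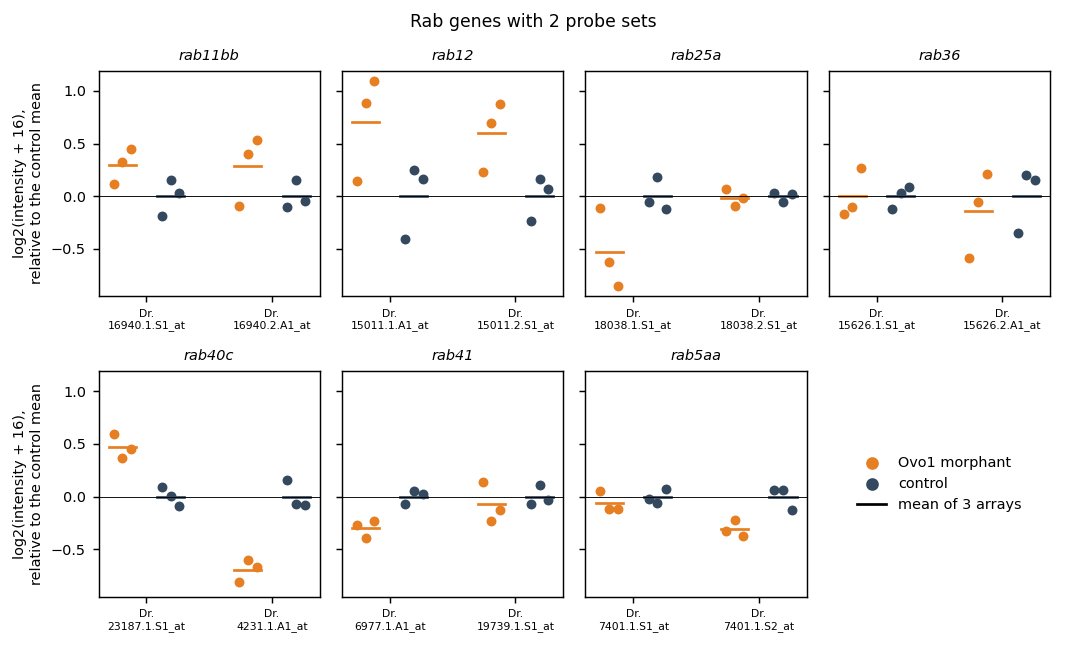
Each array's log2(intensity + 16) relative to the control mean of the same probe set, for the 7 Rab genes with 2 probe sets (brighter probe set on the left); horizontal lines are means of 3 arrays. The rab12 probe sets move together, and those of rab40c stand on opposite sides of 0. The second probe set of rab25a shows almost no spread on this scale, where the added 16 damps differences between its dim readings.

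Copies of 1 subfamily can be set side by side by their changes. In rab18 and rab32 the a copy lay below 0 (−0.41 and −0.32) and the b copy, dimmer than the 25th percentile, at −0.0014 and 0.02. In rab4 the a copy stood at −0.24 and the dim b copy at 0.12, and in rab35 the copies stood at 0.11 and −0.02. The differences between copies were not tested. In all, 7 of the 36 genes read no higher than the 25th percentile in either group mean (rab3c, rab4b, rab11al, rab15, rab18b, rab1bb and rab32b), with single readings from 2.24 to 38.6, and a change in these is damped by the pseudocount.

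The proteins that run the Rab cycle were called about as often as genes in general when the block was used. Of 38 measured regulators, 1 was higher without the block and 0 lower, where 6.8% of all named genes were called. With the block 2 were higher and 5 lower, 18.4% in all, beside 21.3% of all named genes, and their median change was 0.02. The call without the block was dennd5b, of the DENN family, whose members load Rabs with GTP. It read 851, 1067 and 1209 in morphants and 710.4, 679.7 and 722 in controls, a change of 0.54 ± 0.13 (limma adjusted p = 0.0460, and 0.00721 with the block). Leaving out single arrays ended this call in 5 of 6 cases (adjusted p of 0.102 to 0.163, with changes of 0.43 to 0.56), and it held without Ovo1 morphant replicate 1 (0.00396). With the block dennd2b, which activates Rab13 in mammals, was also higher by its brighter probe set (0.41 ± 0.15, limma adjusted p = 0.150, and 0.0296 with the block). Its other probe set was called in neither fit (0.27 ± 0.12, limma adjusted p = 0.225, and 0.0905 with the block).

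Lower with the block was rabggtb, the catalytic subunit of the transferase that attaches the lipid anchors to Rabs. It read 252, 272 and 261 in morphants and 299, 391 and 335 in controls, without overlap (−0.36 ± 0.13, limma adjusted p = 0.148, and 0.0326 with the block). Its escort protein chm stood at 0.02 ± 0.21. The dissociation inhibitor gdi2, which lifts GDP-bound Rabs off membranes, stood at 0.10 ± 0.06. Also lower with the block were the GTPase-activating proteins tbc1d17 (−0.45 ± 0.13, limma adjusted p = 0.0918, and 0.0145 with the block) and tbc1d15 (−0.32 ± 0.18, 0.368 and 0.0499). So were trappc2, a subunit of a Golgi tethering and exchange complex (−0.45 ± 0.19, 0.219 and 0.0361), and dennd2db (−0.37 ± 0.27, 0.507 and 0.0326). In dennd2db, trappc2 and tbc1d15 the groups overlapped. A gene outside these calls, tbc1d23, was named after its values were seen. All 3 of its probe sets were higher in morphants without overlap (0.27 ± 0.13, 0.35 ± 0.13 and 0.41 ± 0.15, the brightest first). With the block only the last of them was called (limma adjusted p = 0.105, 0.0536 and 0.0343).

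Of 8 measured effectors none was called without the block (limma, 1 with an unadjusted p under 0.05, beside 6.8% and 23.9% of all named genes), and with it 1 was lower, beside 10.6% of named genes. This was micall2a, whose mammalian relative binds Rab13 and Rab8 at cell junctions, with dim readings that averaged 19.8 ± 4.88 in morphants and 31.9 ± 3.11 in controls (SD, n = 3 each) and did not overlap (−0.43 ± 0.13, limma adjusted p = 0.0912, and 0.0200 with the block).

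**Figure D4:**
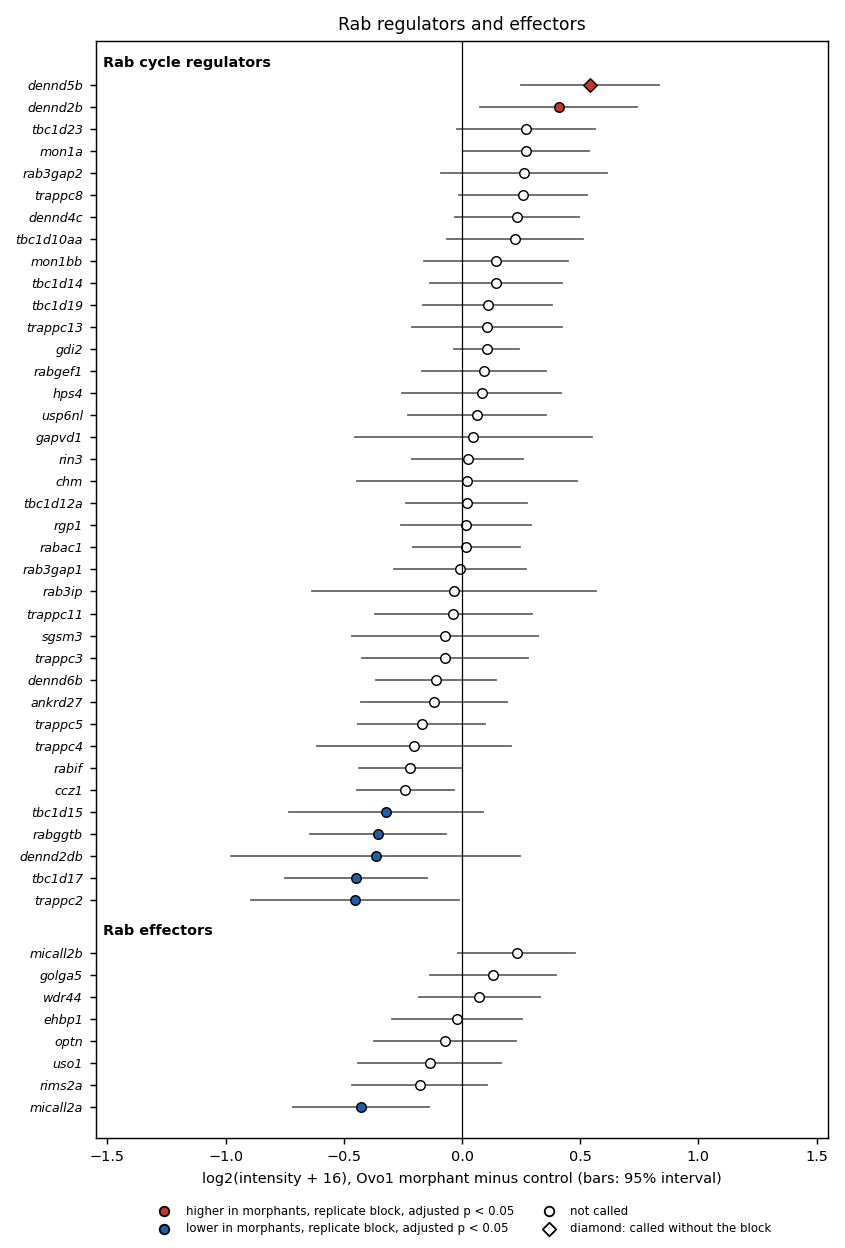
Log2 change, Ovo1 morphant minus control, of 38 Rab cycle regulators and 8 effectors (points) with 95% intervals from the fit without the block (bars); coloured points passed with the replicate block and the diamond also without it. The diamond is dennd5b, at 0.54, and the 5 lower regulators lie between −0.45 and −0.32.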

How the data were processed

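Each probe set has 1 deposited intensity on each array; the submitters' processing notes name PLIER and Expression Console 1.1 (Affymetrix). Settings for background and normalization: not given in the sources used here. From these, log2(intensity + 16) was quantile normalised between arrays after 115 control probe sets were left out, and printed levels are that value turned back to the linear scale. Genes were named by the platform annotation, where a single symbol was given; all 43 Rab probe sets matched the reference table GRCz12tu by gene identifier. Morphants were compared with controls in limma 3.58.1 (R 4.3.3; lmFit, eBayes with an intensity trend), with Benjamini-Hochberg adjustment over 15502 probe sets and a threshold of 0.05. A gene was represented by its probe set with the highest mean. The fit was tested on simulated data with errors independent between arrays, which does not check the pairing behind the block. Figures were drawn with matplotlib 3.10.9.

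The sample titles number the replicates, and the labels do not state that same-numbered samples belong together. The pairing behind the block is therefore an assumption, made from correlations in these same data. Deviations from the group means of same-numbered arrays correlated over all probe sets (r = 0.58, 0.46 and 0.54; over the Rab genes 0.52, −0.07 and 0.53), and over all probe sets every pair was above the required 0.1, so numbers were treated as pairing the samples, and blocked values stand where they change a call. Compartments follow the subfamily's textbook site. Members, lists and the rule for named genes (called in either fit; rab3c, rab12 and rab11a, known from the study; discordant probe sets; the 5 largest further changes among brighter probe sets; duplicated copies) were chosen with earlier results of these data known.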

Additional observations from a re-analysis of the deposited data

How the results depend on the processing

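The number of Rab genes called, 0 with all arrays, was 1 with the filter on dim probe sets, 1 with eBayes without trend, 11 with array weights, 8 with the replicate block and 0 to 3 when each array was left out, and 5 without both arrays numbered 1 (chosen after seeing the data). For Rab probe sets, 1 with all arrays, these counts were 2, 2, 14, 11, 0 to 5, and 7. The 11 Rab genes without group overlap became 12 to 19 when each array was left out and 23 without both arrays numbered 1. Groups of fewer arrays overlap less often in any gene, and these shares were not computed over all named genes. Nor were calls over all probe sets counted without both arrays numbered 1. Regulators called, 1 with all arrays, were 0 with the values as deposited, median centring or eBayes without trend, 5 with array weights, 7 with the replicate block and 0 to 1 without each array; effectors, 0 with all arrays, were 1 with array weights and 1 with the block. Over all probe sets 886 calls became 3126 with array weights, 2891 with the block and 269 to 1713 without each array. Array weights and the block also raised the calls over all probe sets, and the cause was not tested. The block rests on 2 residual degrees of freedom per probe set. The median Rab change stayed within −0.039 and 0.045 in every alternative run that gave one. Signs turned in rab40c with the mean of its probe sets (−0.11), in the second rab25a probe set (−0.058 to 0.024 without each array), in the second rab41 probe set (−0.18 to 0.0086 without each array, and 0.062 with number 2 left out and the block kept) and in the brighter rab5aa probe set (0.0051 with number 3 left out and the block kept); rab40c was the only one with a call. Among genes given array by array, rab13 (0.10 without Ovo1 morphant replicate 3), rab35a (−0.10 without Ovo1 morphant replicate 1, −0.04 with array weights) and rab2a (0.04 without Ovo1 morphant replicate 2) also turned, none of them called, as did rab18b, rab1ab, rab1ba, rab1bb, rab20, rab32b, rab35b, rab36, rab5b and rab7a in at least 1 alternative. The number of arrays limits the precision: 95% intervals of Rab genes were 0.15 to 0.60 wide on either side.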
